A study of Mus musculus with 6 samples.

Results

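The IL-1, IL-6 and TNF axis was followed here as 10 genes, which were taken from the deposited table by gene symbol: the ligands Il1a, Il1b, Il6 and Tnf, the antagonist Il1rn and the decoy receptor Il1r2, and the signalling receptors Il1r1, Il6st, Tnfrsf1a and Tnfrsf1b. Each symbol had a single row, so the axis comprised 10 of the 22183 genes in the table. Libraries were made from sorted peritoneal cells labelled as ECs, 1 per mouse, for 3 saline mice and 3 PD mice. All were wild-type male C57BL/6J mice aged 8 to 10 weeks at the start, which were injected intraperitoneally every day for 6 weeks with saline or with high-glucose Dianeal PD fluid, so that both groups shared the repeated puncture of the peritoneum. The sample labels describe magnetic sorting of CD31+ cells from peritoneal tissue, whereas the supplementary methods give a collagenase digest of the mesentery and a fluorescence sort of CD31+ CD45- cells. CD31 is also carried by platelets and by many leukocytes. PD fluid was compared with saline to ask how the cytokine axis differed in these sorted cells at the end of the treatment.

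IL-1α, IL-1β and TNF are the early alarm cytokines of inflamed tissue. IL-1α and IL-1β share the receptor IL1R1, which recruits the accessory chain IL1RAP and signals through MYD88 to NF-κB. TNF signals through TNFR1, which most cells carry, and TNFR2, which is found mainly on leukocytes and ECs. IL-6 binds its own receptor chain, in membrane or shed form, and then the shared signalling chain gp130 (Il6st), which activates JAK kinases and STAT3. In ECs, IL-1 and TNF induce E-selectin, VCAM-1, ICAM-1 and chemokines, and thereby recruit leukocytes, and in the dialysed peritoneum these cytokines are known from peritonitis and from the local response to PD fluid.

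The total of gene counts ran from 21973426 to 26374292 per mouse, and no axis gene had fewer than 51 reads in any mouse. The CD31 transcript (Pecam1) was at 469 ± 19.4 CPM with saline and 514 ± 7.85 CPM with PD fluid (mean ± SD, n = 3 mice each), and that of VE-cadherin (Cdh5) at 18.9 ± 2.72 and 33.3 ± 1.03 CPM. The CD45 transcript (Ptprc), a marker of leukocytes, was at 2373 ± 127 CPM with saline and 1473 ± 63.6 CPM with PD fluid, so that leukocyte RNA was present in every library. The 12 endothelial markers summed to 1143 to 1160 CPM with saline and 1783 to 1850 CPM with PD fluid, below the 9 B cell markers in both groups (6851 to 7136 and 3218 to 3282 CPM). The summed level of 12 macrophage and monocyte markers was 2251 to 2390 CPM in saline mice and 8919 to 9616 CPM in PD mice, and that of 9 pancreatic acinar markers was 2.27 to 5.44 and 6551 to 7321 CPM. The libraries are therefore described as sorted CD31+ cells with RNA of several cell types, and the part of each type in the results below was not tested. In sorted bulk samples, a change in the number of cells of a type and a change in RNA per cell cannot be told apart.

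All 10 axis genes were higher in PD mice than in saline mice under edgeR's TMM scaling, and 9 of them by at least 2-fold. With scaling to endothelial markers 8 were higher and 1 (Il6st) was lower, beside 1222 higher and 9966 lower of all 14005 genes. With scaling to macrophage and monocyte markers 4 (the ligands) were higher and 4 (the receptors) were lower. On that scale 366 of all genes were higher and 12346 lower. Under TMM the ligands rose most, from 5.33-fold for Il1b to 8.06-fold for Il6. The antagonist Il1rn and the decoy receptor Il1r2 rose by 3.77-fold and 3.16-fold, and the signalling receptors rose by 1.29-fold (Il6st) to 2.69-fold (Tnfrsf1a). The test was edgeR's quasi-likelihood test across all genes with Benjamini-Hochberg adjustment, and the largest adjusted p of the 10 was 0.00025. Of all 14005 genes tested, 31.1% were higher and 27.8% were lower at an adjusted p under 0.05, and 15.4% were higher by at least 2-fold. Either way, 58.9% of all genes tested were called. The 3 PD mice were all above the 3 saline mice for 10 of the 10 axis genes, as they were for 34% of all genes tested. The median log2 fold change was 1.79 over the axis and 0.02 over all genes tested. The labels name no batch, and the p-values weigh the group difference against a spread between these mice that edgeR moderates across genes.

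**Figure D1:**
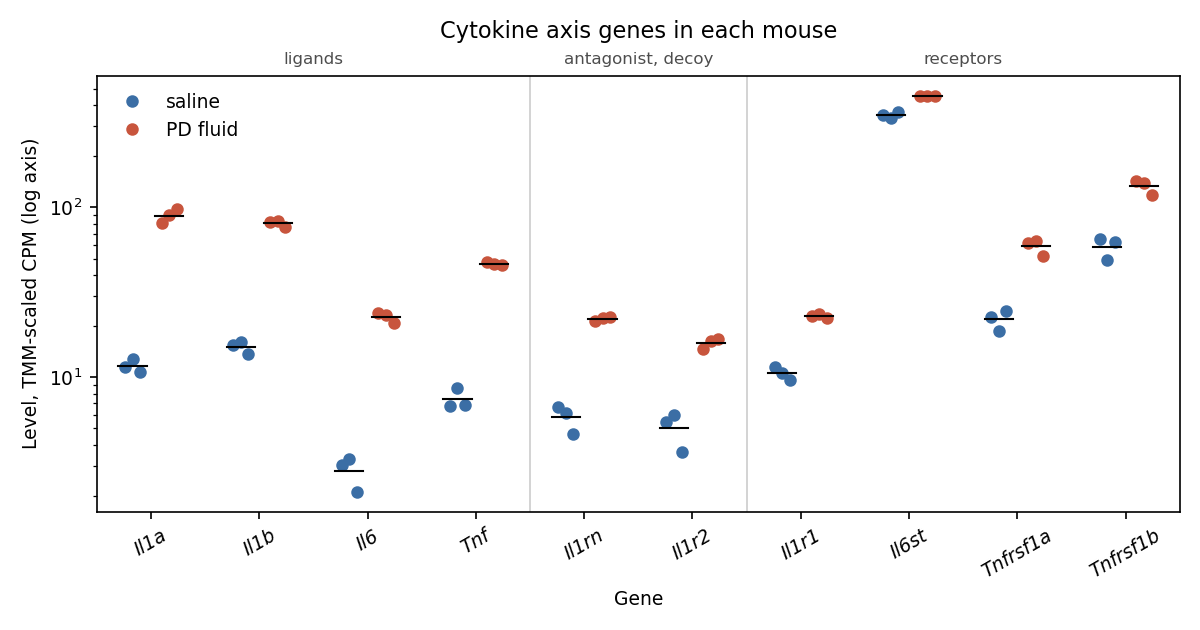
Level of each axis gene in each mouse, in TMM-scaled CPM on a log axis, with the horizontal bar at the mean of 3 mice. In each of the 10 genes the PD mice sit above the saline mice, with the widest gap in the ligands (Il6 at 2.81 and 22.6 CPM) and the narrowest in Il6st (351 and 454 CPM), on this scaling.

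The ligand genes are shown with the 150 bases before their start sites, since the ligands carried the largest changes and these stretches hold the core promoter of each gene. The sequences are those of RefSeq on GRCm38.p6, written 5′ to 3′ on the strand of the gene. Capitals mark a C/EBP match and an NF-κB match in Il6, a TATA box in Tnf, Il1a and Il1b, and an AP-1 match in Il1a.
Il6 (chr5:30012964-30013113, + strand): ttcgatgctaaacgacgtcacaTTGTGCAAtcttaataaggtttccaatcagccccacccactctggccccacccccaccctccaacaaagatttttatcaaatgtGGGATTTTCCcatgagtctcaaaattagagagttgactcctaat
Tnf (chr17:35202008-35202157, - strand): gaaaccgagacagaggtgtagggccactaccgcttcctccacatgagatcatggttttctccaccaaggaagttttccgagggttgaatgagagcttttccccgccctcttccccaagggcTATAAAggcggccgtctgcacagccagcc
Il1a (chr2:129309973-129310122, - strand): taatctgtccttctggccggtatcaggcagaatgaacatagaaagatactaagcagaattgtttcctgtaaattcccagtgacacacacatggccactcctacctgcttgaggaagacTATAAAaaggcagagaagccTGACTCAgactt
Il1b (chr2:129371140-129371289, - strand): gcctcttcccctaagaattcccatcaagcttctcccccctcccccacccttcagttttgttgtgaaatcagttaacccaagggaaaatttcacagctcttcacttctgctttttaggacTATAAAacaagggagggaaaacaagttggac

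Motifs were searched on both strands from 250 bases before to 50 bases after each start site, as descriptions of the sequence. All 10 axis genes matched the RefSeq promoter table, with 13 start sites, of which Il1rn had 3. A TATA box (TATAAA) lay 24 to 32 bases before the start site on the strand of the gene in Il1a, Il1b and Tnf. The letters also occurred downstream of one start of Il1rn, on the opposite strand. With that match, 4 of the 13 windows held them, against 13.6% of all 32851 promoters. The NF-κB consensus was found in Il6, at positions -44 to -35 from the start, and at one start of Il1r1, which is 2 of the 13 windows, against 8.46% of all promoters. AP-1 (TGANTCA, which reads the same on both strands) was found in Il1a, in Il6 and at one start of Il1rn, 3 of the 13 windows, against 7.81% of all promoters. The match in Il1a is at -12 to -6, and that in Il6 is at -249 to -243, upstream of the stretch shown. C/EBP (TTGCNNAA) was found in Il6, at -128 to -121 on the opposite strand, and at one start of Il1r1, 2 of the 13 windows, against 10.8% of all promoters. The CRE (TGACGTCA) was found in 0 of the 13 windows and in 1.79% of all promoters. None of the 5 motifs was found in the windows of Il1r2, Il6st, Tnfrsf1a and Tnfrsf1b.

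Il6 (ENSMUSG00000025746, chr5:30013114-30019981) rose most among the axis genes. It encodes the cytokine that drives the acute-phase response and, in the peritoneum, the change from neutrophil to mononuclear recruitment. In saline mice it was at 3.05, 3.27 and 2.11 CPM, and in PD mice at 24.0, 23.2 and 20.8 CPM. The PD mice lay well above the saline mice and close together, and the lowest PD mouse was 6.34 times the highest saline mouse. The means were 2.81 ± 0.616 CPM and 22.6 ± 1.67 CPM (SD, n = 3 mice each), and the log2 fold change was 3.01 ± 0.17 (SE) with an adjusted p of 8.7e-08. Il6 had the lowest counts of the axis in saline mice, 51 to 78 reads.

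Il1a (ENSMUSG00000027399, chr2:129299610-129309972) encodes IL-1α, an alarmin that is active as its precursor and is released from damaged cells. Its level was 11.5, 12.9 and 10.7 CPM in saline mice and 81.4, 89.7 and 97.2 CPM in PD mice. The groups were as far apart as those of Il6, and the lowest PD mouse was 6.33 times the highest saline mouse. The log2 fold change was 2.94 ± 0.10 with an adjusted p of 2.4e-09, the smallest of the 10. Il1b (ENSMUSG00000027398, chr2:129364570-129371139) lies next to Il1a on the same strand and encodes IL-1β, which caspase-1 must cleave before it is active. It was at 15.5, 16.1 and 13.7 CPM in saline mice and at 81.8, 83.5 and 76.5 CPM in PD mice. The third mouse was the lowest of both groups, and the groups stayed far apart. Il1b rose by 2.41 ± 0.09 on the log2 scale with an adjusted p of 3.7e-09. Reads of Il1b and its antisense gene Il1bos, and of Il1a and the overlapping Gm14023, cannot be told apart here, as the counting is not stated to use strand. The same holds for Il1r2 and its antisense gene Gm16894. Il1r2 also overlaps Gm37347, and Il1r1 overlaps Gm38070, on the same strand.

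Tnf (ENSMUSG00000024401, chr17:35199381-35202007) encodes TNF, which is made as a membrane protein and shed by ADAM17. It was at 6.79, 8.58 and 6.83 CPM in saline mice and at 47.4, 46.6 and 46.1 CPM in PD mice. The PD mice were nearly equal, and each was at least 5.37 times the highest saline mouse. The means were 7.40 ± 1.02 and 46.7 ± 0.678 CPM, and the log2 fold change was 2.66 ± 0.11 with an adjusted p of 9.8e-09. Tnf lies between the lymphotoxin genes Ltb (chr17:35194439-35196320) and Lta (chr17:35203165-35205351), which encode related cytokines made mainly by lymphocytes, and both of these were lower in PD mice. Ltb was at 1069 ± 41.3 CPM with saline and 647 ± 51.5 CPM with PD fluid, and fell by 0.72 on the log2 scale (SE 0.07, adjusted p 8.4e-06). Lta, which was chosen after its values were seen, was at 31.4 ± 3.99 and 19.4 ± 0.586 CPM, and fell by 0.69 (SE 0.11, adjusted p 0.0003). Beside this, the B cell markers summed to 6851 to 7136 CPM in saline mice and 3218 to 3282 CPM in PD mice, and their part in the fall of Ltb and Lta was not tested.

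Il1rn (ENSMUSG00000026981, chr2:24336853-24351494) encodes the IL-1 receptor antagonist, which binds IL1R1 without starting a signal. Its level was 6.72, 6.18 and 4.64 CPM in saline mice and 21.4, 22.3 and 22.5 CPM in PD mice. All PD mice were at least 3.19 times the highest saline mouse, and they varied less among themselves than the saline mice did (SD 0.588 and 1.08 CPM). The log2 fold change was 1.92 ± 0.14 with an adjusted p of 1.1e-06. The 3 start sites of Il1rn give secreted and intracellular forms of the protein, which a count per gene does not separate. Il1r2 (ENSMUSG00000026073, chr1:40074079-40125231) encodes the decoy receptor that takes up IL-1 without signalling. It was at 5.47, 6.00 and 3.64 CPM in saline mice and at 14.7, 16.3 and 16.8 CPM in PD mice. The saline mice were spread widely, and the lowest PD mouse was still 2.45 times the highest of them. Il1r2 rose by 1.66 ± 0.18 on the log2 scale with an adjusted p of 1.8e-05. Both genes were called higher with scaling to endothelial markers (log2 fold changes 0.98 and 0.72), and with scaling to macrophage and monocyte markers neither was called (0.06 and -0.20, adjusted p 0.72 and 0.30).

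Among the signalling receptors, Tnfrsf1a (ENSMUSG00000030341, chr6:125349362-125362484), which encodes TNFR1, the receptor of inflammatory and death signalling by TNF, rose most. It was at 22.5, 18.8 and 24.5 CPM in saline mice and at 62.0, 63.4 and 51.8 CPM in PD mice. One mouse of each group stood somewhat below the other two, and the groups did not overlap. The log2 fold change was 1.43 ± 0.12 with an adjusted p of 2e-06. Tnfrsf1b (ENSMUSG00000028599, chr4:145213463-145246870) encodes TNFR2, which lacks a death domain. Its level was 64.9, 49.2 and 62.2 CPM in saline mice and 143, 140 and 119 CPM in PD mice. The same mice were the lowest as for Tnfrsf1a. Tnfrsf1b rose by 1.19 ± 0.11 on the log2 scale with an adjusted p of 5.3e-06.

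Il1r1 (ENSMUSG00000026072, chr1:40225080-40317257), the signalling receptor of both IL-1 ligands, was at 11.5, 10.7 and 9.65 CPM in saline mice and at 23.1, 23.7 and 22.4 CPM in PD mice. Each group was tight, with the lowest PD mouse at 1.95 times the highest saline mouse. The log2 fold change was 1.12 ± 0.11 with an adjusted p of 9.3e-06. Il6st (ENSMUSG00000021756, chr13:112464070-112510086) encodes gp130, which serves the whole IL-6 family of cytokines and is found on most cells. It was at 350, 338 and 365 CPM in saline mice and at 456, 456 and 451 CPM in PD mice. This was the smallest difference of the axis, 0.37 ± 0.06 on the log2 scale with an adjusted p of 0.00025. The groups did not overlap. The direction of the 4 receptors depended on the scaling, as given with the scaling to markers.

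On the TMM scale, the partner chains differed little between the groups. Il1rap, the accessory chain without which IL1R1 does not signal, was at 27.3, 30.5 and 29.2 CPM in saline mice and at 23.8, 22.9 and 25.8 CPM in PD mice. Its PD mice were all below its saline mice, and its log2 fold change of -0.26 ± 0.09 had an adjusted p of 0.031. The log2 fold change of Il1rap was -1.20 with scaling to endothelial markers and -2.13 with scaling to macrophage and monocyte markers. On these scales the median of all genes was -0.92 and -1.84. Il6ra, the chain that binds IL-6, was at 122, 115 and 133 CPM in saline mice and at 143, 140 and 144 CPM in PD mice. The log2 fold change of Il6ra was 0.21 ± 0.07 with an adjusted p of 0.024, and it was negative with scaling to endothelial markers (-0.73). Leaving out 1 mouse took either call past the threshold in 4 of 6 cases, for Il1rap without saline mouse 2 or 3 or PD mouse 1 or 2 (adjusted p 0.064 to 0.13), and for Il6ra without saline mouse 1 or 2 or PD mouse 2 or 3 (0.05027 to 0.076).

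Levels of different genes were compared per length, in the FPKM that the authors computed. In saline mice, Il6st stood highest with 73.3 ± 0.779 FPKM (SD, n = 3 mice), followed by Tnfrsf1b with 15.3 ± 2.30, Il1b with 11.1 ± 0.836, Tnfrsf1a with 10.2 ± 1.46 and Il1a with 5.90 ± 0.505 FPKM. The mice of Il1b and Tnfrsf1a overlapped. Tnf (4.5 ± 0.580), Il1r2 (3.68 ± 0.974), Il1rn (3.11 ± 0.382), Il6 (2.34 ± 0.463) and Il1r1 (2.17 ± 0.200 FPKM) made up the lower part of the order, in which each gene overlapped the next. In PD mice, Il6st was again first with 92.6 ± 4.79 FPKM, and the IL-1 ligands came next, Il1b with 59.7 ± 3.96 and Il1a with 45.4 ± 2.81 FPKM. Tnfrsf1b was at 35.3 ± 4.24, Tnf at 28.6 ± 1.18, Tnfrsf1a at 27.7 ± 3.62 and Il6 at 19.5 ± 2.71 FPKM. Tnf and Tnfrsf1a overlapped, and so did Il1r2 (12 ± 0.673) and Il1rn (11.3 ± 0.0295 FPKM). Il1r1, the receptor that both IL-1 ligands need, was last in both groups, at 4.74 ± 0.232 FPKM in PD mice.

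**Figure D2:**
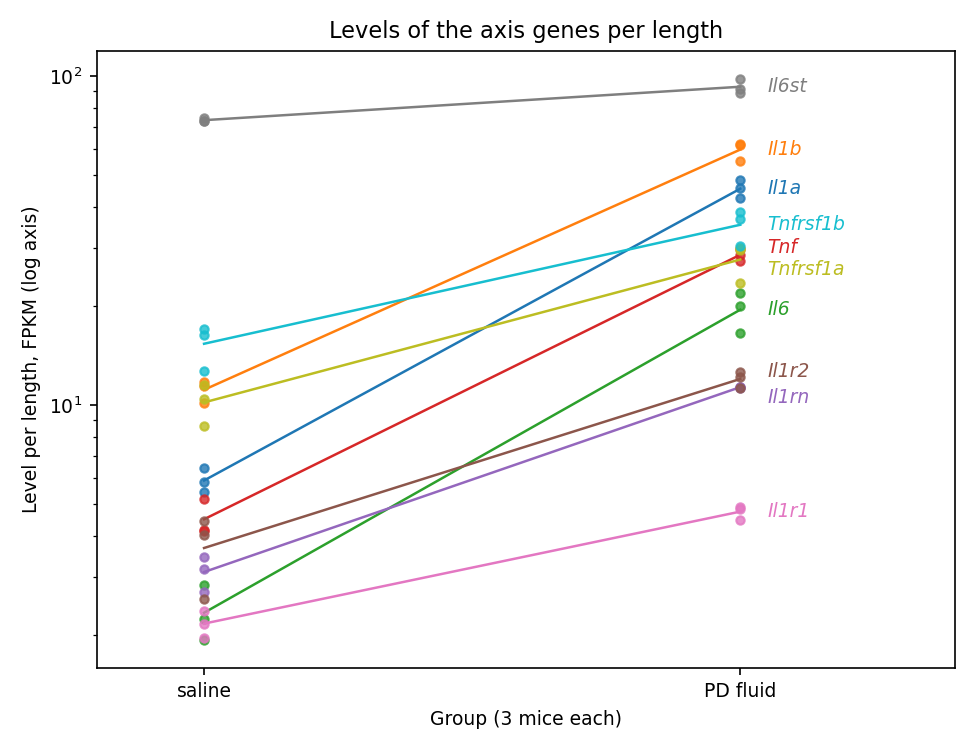
Level per length of the 10 axis genes in saline and PD mice, in the authors' FPKM on a log axis, with a point for each mouse and a line between the means of 3 mice. Il1a and Il1b pass above Tnfrsf1b in PD mice (45.4 and 59.7 against 35.3 FPKM), and Il1r1 stays lowest (2.17 and 4.74 FPKM).

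Ratios of 2 axis genes within a mouse do not depend on the scaling between libraries. The ratio of Il1rn to Il1b counts, the antagonist against an agonist, was 0.432, 0.383 and 0.337 in saline mice and 0.262, 0.267 and 0.294 in PD mice, a difference of -0.48 on the log2 scale. All PD mice were below all saline mice, so the antagonist rose less than the agonist. The ratio of Il1r2 to Il1r1, the decoy against the signalling receptor, was 0.476, 0.563 and 0.378 in saline mice and 0.636, 0.687 and 0.751 in PD mice, a difference of 0.57. Here all PD mice were higher. Il1b to Il1a was 1.35, 1.25 and 1.29 in saline mice and 1.01, 0.931 and 0.787 in PD mice, a difference of -0.52. Tnfrsf1b to Tnfrsf1a changed least, from 2.88, 2.62 and 2.54 to 2.31, 2.21 and 2.30, a difference of -0.24. The ratio of Il6st to Il6 was 115, 103 and 173 in saline mice and 19.0, 19.7 and 21.7 in PD mice, a difference of -2.66. In each of the 5 ratios the groups did not overlap. A two-sided exact permutation test reached p = 0.1 (0.1 after Benjamini-Hochberg adjustment over the 5), which is the floor for 3 mice against 3. Among single genes tested, the PD mice were all above the saline mice in 34% and all below in 31.6%. Such a share was not computed for ratios. The part of cell composition in the ratios was not tested.

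Of 28 other IL-1 pathway genes, 9 were higher and 11 were lower in PD mice (2 and 23 with scaling to endothelial markers, 0 and 26 with scaling to macrophage and monocyte markers), with a median log2 fold change of 0.05. Over all genes tested, 31.1% were higher and 27.8% were lower, with a median of 0.02, so the share of higher genes was near that background. Of all 14005 genes, 1222 were higher and 9966 lower with endothelial scaling, and 366 and 12346 with macrophage and monocyte scaling. The largest rises were in Il36g, an IL-1 family ligand of epithelia (2.29 ± 0.45, adjusted p 0.0013), in Nlrp3, the inflammasome sensor upstream of IL-1β cleavage (1.29 to 5.63 CPM, 2.11 ± 0.26, 5e-05), and in Il18bp, which neutralises IL-18 (1.2 ± 0.12, 8.9e-06). The values of Il36g rested on 9 to 29 reads in saline mice, and without saline mouse 2 its log2 fold change was 3.17. The largest falls were in Peli1, a ubiquitin ligase that binds IRAK proteins, which fell from 772 to 475 CPM (-0.70 ± 0.09, 5.5e-05), in Tab1, a partner of the kinase TAK1 (-0.61 ± 0.09, 0.00017), and in Sigirr, an inhibitory receptor of the family (-0.45 ± 0.07, 0.00017). Of the inflammasome genes in the list, Casp1, which cleaves IL-1β, was at 124 CPM with saline and 93 CPM with PD fluid (-0.41 ± 0.08, 0.0017), and Pycard, its adaptor, was at 86.5 and 65.7 CPM (-0.40 ± 0.08, 0.0015). These 2 genes were chosen after their values were seen. Gsdmd (-0.03 ± 0.07, adjusted p 0.76) and Il18 (0.17 ± 0.15, 0.33), also in the list, were not called.

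Of 28 other genes of the IL-6 family pathway, 26 were tested. Of these, 15 were higher and 6 lower (5 and 15 with endothelial scaling, 1 and 21 with macrophage and monocyte scaling). Their median was 0.41, beside 31.1% higher and 27.8% lower over all genes tested. With endothelial scaling 1222 of all 14005 genes were higher and 9966 lower, and with macrophage and monocyte scaling 366 and 12346. Cebpb, a transcription factor of the IL-6 and acute-phase response, rose from 48.1 to 242 CPM (2.33 ± 0.09, adjusted p 5e-09), and Socs3, the feedback inhibitor of gp130 signalling, from 71.5 to 241 CPM (1.75 ± 0.14, 2.2e-06). Ctf1, which encodes cardiotrophin-1, was among the largest rises with 2.01 ± 0.59 (0.013), on 1 to 9 reads in saline mice and 15 to 30 in PD mice, and its call was lost without PD mouse 3 (adjusted p 0.06). Among the genes that fell were Jak1, a kinase bound to gp130 (-0.35 ± 0.06, 0.00039), and Clcf1, a ligand of the family (-0.34 ± 0.10, 0.012), whose call was lost without saline mouse 1 (adjusted p 0.076). Il11 and Cntfr did not pass the filter on low counts.

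Of 31 other TNF pathway genes, 6 were higher and 17 were lower in PD mice (2 and 28 with endothelial scaling, 0 and 31 with macrophage and monocyte scaling), with a median of -0.22. Over all genes tested, 31.1% were higher and 27.8% lower under TMM. The count of higher genes was below and that of lower genes above what these shares give. All 14005 genes gave 1222 higher and 9966 lower with endothelial scaling, and 366 and 12346 with macrophage and monocyte scaling. Ltbr, the lymphotoxin β receptor, rose most (1.32 ± 0.14, adjusted p 1.7e-05), followed by Tnfaip3, which encodes the NF-κB inhibitor A20 (188 to 417 CPM, 1.15 ± 0.06, 4.6e-08), and Mlkl, the effector of necroptosis (0.61 ± 0.15, 0.0048). The largest falls were in Traf5, an adaptor of TNF family receptors (-0.72 ± 0.07, 8.2e-06), in Ltb, and in Otulin, a deubiquitinase of linear ubiquitin chains (-0.70 ± 0.06, 4.4e-06). The 3 genes of the IκB kinase complex, chosen after their values were seen, were among the lower ones, with Ikbkg at -0.61, Chuk at -0.46 and Ikbkb at -0.28 on the log2 scale.

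The genes that IL-1, TNF and IL-6 are known to induce in ECs were higher with few exceptions. Of 28 genes, 26 were higher and 1 was lower (15 and 4 with endothelial scaling, 6 and 16 with macrophage and monocyte scaling). Their median log2 fold change was 1.30, beside 31.1% higher, 27.8% lower and a median of 0.02 over all genes tested. Among all 14005 genes, 1222 were higher and 9966 lower with endothelial scaling, and 366 and 12346 with macrophage and monocyte scaling. The largest rises were in Csf3, which encodes the granulocyte growth factor G-CSF (0.327 to 11 CPM, 5.02 ± 0.39, adjusted p 1.5e-06), in the neutrophil chemokine Cxcl2 (12.9 to 138 CPM, 3.43 ± 0.11, 1.1e-09) and in Tnfaip2 (10.4 to 106 CPM, 3.33 ± 0.14, 1.1e-08). Csf3 had 1 to 17 reads in saline mice, and its log2 fold change was 6.13 without saline mouse 1 and 4.49 without saline mouse 3. Birc3, a ubiquitin ligase of the TNF receptor complex, was the lower gene (-0.28 ± 0.06, 0.0026), and Zc3h12a did not pass the threshold. The adhesion molecules in the list were chosen after their values were seen. Sele was at 4.70 CPM with saline and 38.8 CPM with PD fluid, and Selp (P-selectin) at 48.9 and 160 CPM. Vcam1 was at 108 and 236 CPM, and Icam1 at 146 and 306 CPM. In that order, their log2 fold changes under TMM were 3.04, 1.71, 1.13 and 1.07. The endothelial markers had a median of 0.95 on the same scale, with a range of 0.13 to 1.65. The part of endothelial content in the rises of the adhesion molecules was not tested. Among the 109 distinct genes of the 4 lists, 6 were in more than 1 list. Cxcl2 and several others of these genes are also made by macrophages, whose markers were higher in PD mice. The part of macrophages in these rises was not tested.

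**Figure D3:**
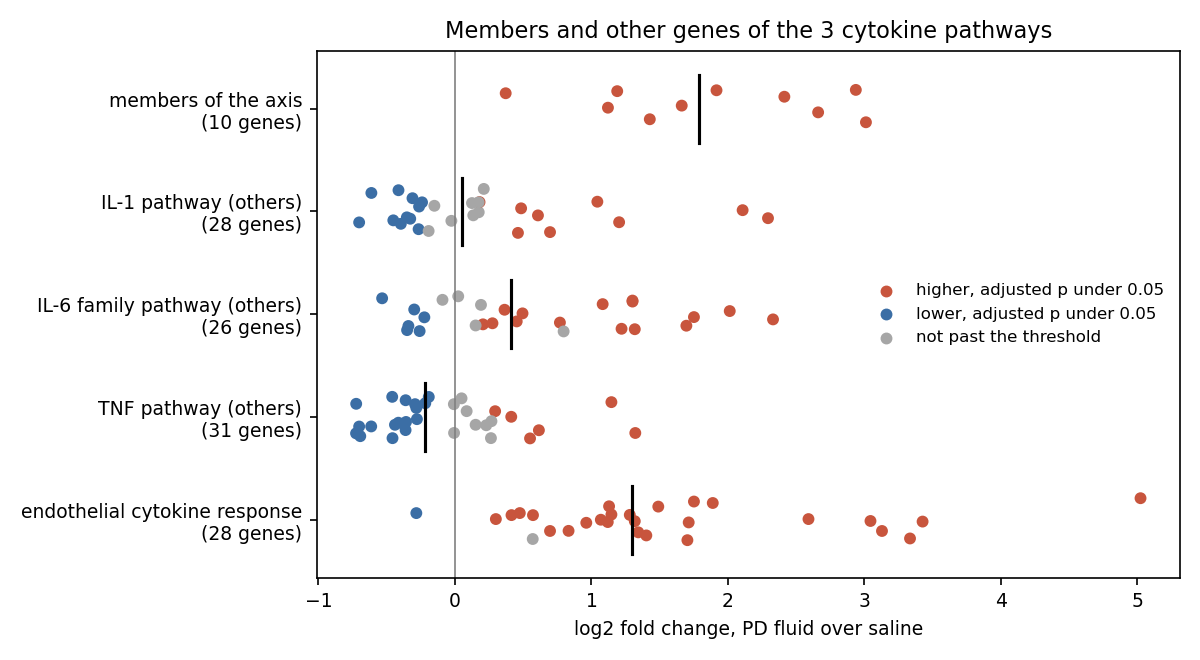
Log2 fold change, PD fluid over saline, of the axis genes and of the other genes of each pathway under TMM scaling, with a point for each gene coloured by edgeR's call at an adjusted p under 0.05 and a bar at the median. The medians are 1.79 for the axis, 0.05, 0.41 and -0.22 for the other IL-1, IL-6 family and TNF pathway genes, and 1.30 for the genes that cytokines induce in ECs.

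Markers of several cell types, though not of all, were higher in PD mice, as the axis was. Of 12 endothelial markers, 11 were higher and 1 (Pecam1, log2 fold change 0.13, adjusted p 0.07) was not called, and their summed level was 1143 to 1160 CPM in saline mice and 1783 to 1850 CPM in PD mice. Of 12 macrophage and monocyte markers, 12 were higher, with a median log2 fold change of 1.90, which is above that of the axis. The first of them, Adgre1 (F4/80), was at 85.5 and 353 CPM, and Csf1r at 193 and 658 CPM. Of 9 neutrophil markers tested, 8 were higher, and S100a8 was at 1.42 and 82.9 CPM, while Ly6g was not tested and Cxcr2 was not called. Of the other lists, 7 of 7 mesothelial, 8 of 8 fibroblast, 9 of 9 acinar, 7 of 8 mural and 6 of 7 mast cell markers were higher, as were 9 of 10 genes of the stress response to dissociation, while 9 of 9 B cell markers were lower. Dendritic cell markers (5 higher and 1 lower of 8) and T and NK cell markers (2 higher and 4 lower of 9) were mixed. No marker was at 0 throughout a group.

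**Figure D4:**
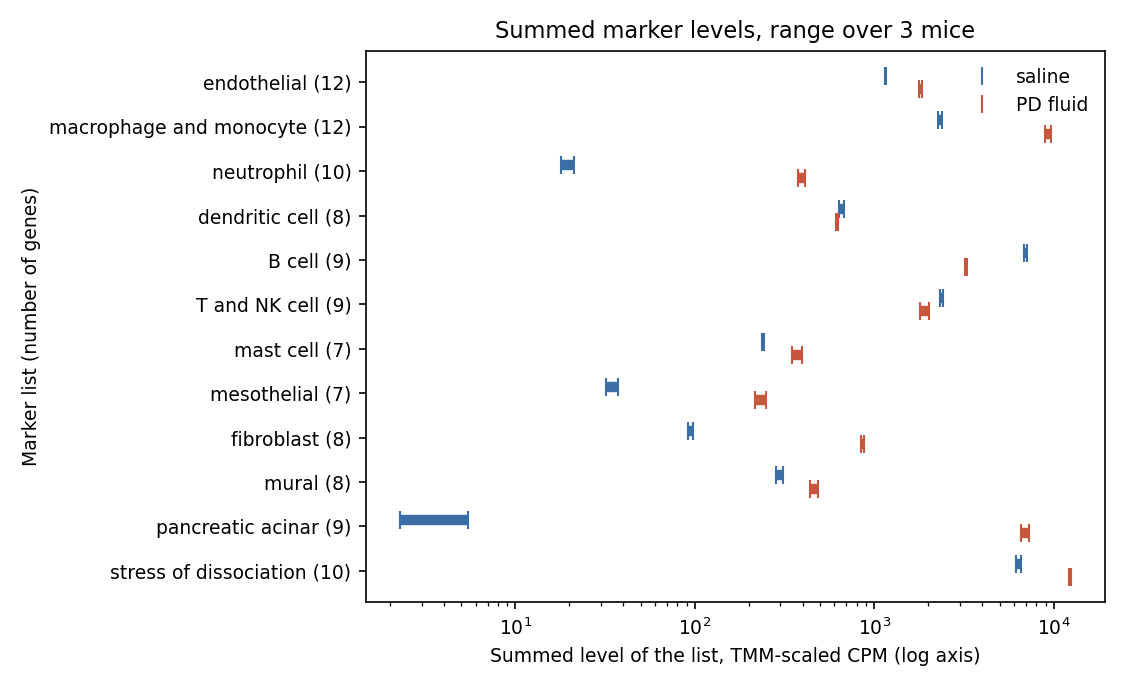
Summed level of each marker list, in TMM-scaled CPM on a log axis, with a bar from the lowest to the highest of 3 mice in each group. Macrophage and monocyte markers lie at 2251 to 2390 CPM in saline mice and 8919 to 9616 CPM in PD mice, endothelial markers at 1143 to 1160 and 1783 to 1850 CPM, and acinar markers at 2.27 to 5.44 and 6551 to 7321 CPM.

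The axis was therefore also expressed relative to these markers. With libraries scaled to the 12 endothelial markers, the median of all genes moved to -0.92, with 1222 genes higher and 9966 lower, against 4359 and 3887 under TMM. The ligands remained higher on this scale, at 2.07 for Il6, 2.0 for Il1a, 1.72 for Tnf and 1.48 for Il1b. Tnfrsf1a (0.49) and Tnfrsf1b (0.26) were still called higher, Il1r1 was not called (0.19, adjusted p 0.19), and Il6st was lower (-0.56, adjusted p 1.1e-05). With libraries scaled to the 12 macrophage and monocyte markers, the median of all genes was -1.84, with 366 genes higher and 12346 lower. The 4 ligands were among those higher, at 1.15 for Il6, 1.07 for Il1a, 0.80 for Tnf and 0.55 for Il1b. This scale is set by the 12 markers together, whose own log2 fold changes under TMM ran from 0.42 to 3.19, so the highest of them rose more than any ligand. The medians of the neutrophil (5.32), mesothelial (3.57) and fibroblast (3.05) markers under TMM were also above the largest change of a ligand (3.01). The 4 signalling receptors were lower on this scale, at -0.43 for Tnfrsf1a, -0.67 for Tnfrsf1b, -0.74 for Il1r1 and -1.49 for Il6st. Which cells carried the transcripts was not tested.

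**Figure D5:**
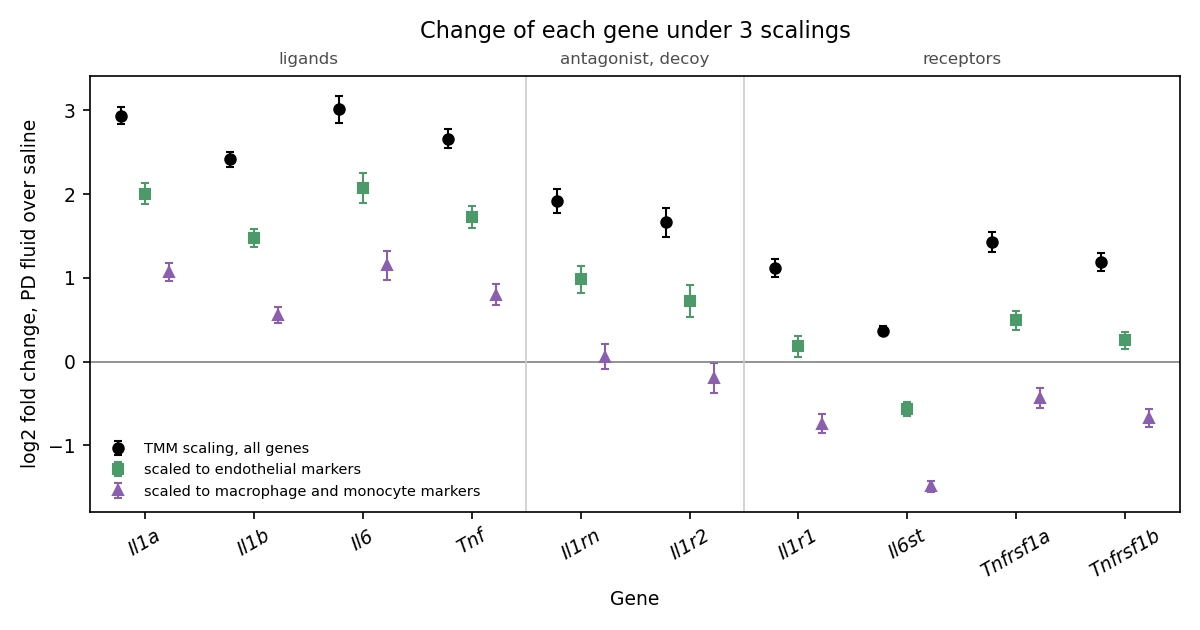
Log2 fold change of each axis gene, PD fluid over saline, with its standard error, under TMM scaling, scaling to 12 endothelial markers and scaling to 12 macrophage and monocyte markers. The 4 ligands lie above 0 under the 3 scalings, whereas Il6st falls below 0 with endothelial scaling (-0.56) and the 4 receptors do with macrophage and monocyte scaling (-0.43 to -1.49).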

How the data were processed

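Sorted peritoneal cells, labelled as ECs, of 3 saline and 3 PD mice were sequenced, and groups were taken from the sample labels. The authors deposited a read count for each gene and mouse, without normalization, and FPKM values that they computed from the same reads. The table also holds the authors' group means, log2 ratios, p-values and FDR, which were not used. The submitters' processing notes name fastp 0.18.0, Bowtie2 2.2.8, HISAT2, StringTie and RSEM, while the genome build and the annotation of the counts are not given in the sources used here. Positions were therefore taken from GENCODE M21 on GRCm38 by Ensembl identifier, and promoters from RefSeq on GRCm38.p6.

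Counts were filtered with filterByExpr, which kept 14005 genes, scaled by TMM and tested with edgeR 4.0.16 (glmQLFit and glmQLFTest, R 4.3.3), PD fluid against saline without a covariate, where the study's methods name limma. P-values were adjusted by Benjamini-Hochberg over all genes tested, with a threshold of 0.05, and standard errors came from the F statistic. The script was tested on simulated data. CPM are TMM-scaled. With 21973426 to 26374292 reads per mouse, levels under 1 CPM rest on few reads. Ratios were compared by exact permutation.

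The genes named are the 10 axis genes, Il1rap and Il6ra, up to 3 genes with the largest rise and fall in each pathway list among those called without overlap, the leading markers of lists, Ptprc, and the genes nearest in pattern to Il1b, Il6 and Tnf. A gene that this rule names is not reported here. The genes of the axis and all lists were chosen with earlier results of these data known. Alternatives were DESeq2 1.42.0, limma-voom 3.58.1, RLE size factors, no filter, a fold change of at least 2, a replicate block, scaling to markers and leaving out each mouse.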

Additional observations from a re-analysis of the deposited data

How the results depend on the processing

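With DESeq2, limma-voom, RLE size factors or no filter on low counts, 34 of 34 named genes of the axis and its pathways kept their direction and call. The same replicate numbers occur in both groups, but the deviations of same-numbered mice correlated at 0.31, 0.12 and -0.39, so the numbers were not taken as pairs. With the replicate number as a block, the 10 axis genes remained higher, 33 of 34 named genes kept their call, Il1rap lost it (adjusted p 0.052), and 4242 genes were higher and 3667 lower.

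Scaling to markers changed most. With endothelial scaling the axis median was 0.85, 1 axis gene (Il6st, -0.56) was lower, and Il6ra was at -0.73 and Mlkl at -0.32. With macrophage and monocyte scaling the axis median was -0.071, 4 axis genes were higher and 4 lower, with Il1r1 at -0.74, Il1r2 at -0.20, Il6st at -1.49, Tnfrsf1a at -0.43 and Tnfrsf1b at -0.67, and Il6ra was at -1.66, Il18bp at -0.66, Socs3 at -0.11, Ltbr at -0.54, Tnfaip3 at -0.72 and Mlkl at -1.25. In the order endothelial scaling, macrophage and monocyte scaling, and a fold change of at least 2, the genes higher were 2, 0 and 4 for IL-1, 5, 1 and 9 for IL-6 and 2, 0 and 2 for TNF. The genes lower were 23, 26 and 0 for IL-1, 15, 21 and 0 for IL-6 and 28, 31 and 0 for TNF. Of the genes induced in ECs, 15 and 6 were higher with the 2 marker scalings, and 4, 16 and 0 were lower. Over all 14005 genes, 1222 were higher and 9966 lower with endothelial scaling, and 366 and 12346 with macrophage and monocyte scaling. A rise of at least 2-fold was called for 2158 of them (15.4%) under TMM.

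Leaving out 1 mouse kept the 10 axis genes called and gave an axis median of 1.64 to 1.89. Depth limits the genes with few reads, such as Ctf1, Il36g and Csf3 in saline mice.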

Other observations

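The IL-1 receptor genes lie in a cluster on chromosome 1, and their changes along it differed, in values chosen after they were seen. From Il1r2 (log2 fold change 1.66) and Il1r1 (1.12), the cluster continues with Il1rl2, the IL-36 receptor (chr1:40324610-40367562), which was at 8.93 CPM with saline and 7.38 CPM with PD fluid with overlapping groups (-0.27, adjusted p 0.17). Next is Il1rl1, the IL-33 receptor ST2 (chr1:40429570-40465415), which was at 21.1 and 43.4 CPM (1.04, adjusted p 2.5e-06). The IL-18 receptor genes Il18r1 and Il18rap close the cluster, at 12.3 and 17.2 CPM (0.48, adjusted p 0.0031) and at 11.4 and 17.3 CPM (0.61, adjusted p 0.0011). With scaling to macrophage and monocyte markers, the median of all genes moves to -1.84, which exceeds each of these rises, and the changes are given on the TMM scale.

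The genes nearest in pattern to Il1b over the 6 libraries, by Pearson's r of log2(CPM + 1) among 10719 genes with a mean of at least 5 CPM, were Ackr3, Mrc1 and Cxcl2. For Il6 they were Slc16a3, Atp6v0d2 and Ubd, and for Tnf they were Ogn, Ninj1 and Cxcl1. The 6 points share the 2 groups, and 496, 366 and 486 genes had an r over 0.99 with Il1b, Il6 and Tnf, so that the nearest genes are a description only.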
